A study of Homo sapiens with 8 samples.

Results

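The 8 genes described here encode the first 2 steps of branched-chain amino acid (BCAA) breakdown and the pair of enzymes that switch the second step off and on. They are the transaminases BCAT1 and BCAT2, the branched-chain ketoacid dehydrogenase (BCKDH) subunits BCKDHA, BCKDHB, DBT and DLD, the BCKDH kinase BCKDK and the BCKDH phosphatase PPM1K. The genes were grouped by their place in the pathway. Each symbol was matched to 1 Ensembl identifier, and all 8 were among the 25431 genes listed for 769-P cells and the 24190 listed for CAKI-1 cells. Of these, 22391 and 21347 passed a filter on mean level and were tested, all 8 members among them. 769-P and CAKI-1 are established human renal cell carcinoma (RCC) lines. RNA was sequenced from cells kept for 16 hours without BCAA, or with added BCAA, in which valine was at 0.17 mM and both leucine and isoleucine were at 0.38 mM. Each of the 4 groups (769-P without BCAA, 769-P with BCAA, CAKI-1 without BCAA, CAKI-1 with BCAA) had 2 libraries, 8 in all, and the labels name no genetic change made for the experiment in any group. Per the methods, the medium without BCAA was built from an amino acid-free RPMI powder with dialyzed serum, whereas CAKI-1 cells are otherwise kept in MEM and 769-P cells in RPMI. The labels do not say that replicates were separate cultures, so p-values measure only the spread between these libraries, which may be technical.

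Leucine, isoleucine and valine first lose their amino group to 2-oxoglutarate, a reversible reaction carried out by BCAT1 in the cytosol and BCAT2 in mitochondria. The branched-chain ketoacids that result are then oxidized irreversibly by BCKDH, a mitochondrial complex of a decarboxylase (E1, from BCKDHA and BCKDHB), a lipoate-bearing acyltransferase core (E2, from DBT) and a dihydrolipoamide dehydrogenase (E3, from DLD) that is shared with other complexes. BCKDK phosphorylates E1 and inactivates the complex, and PPM1K removes the phosphate.

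The deposited value of a gene is its read count divided by 1 size factor per library, called the normalized value below. Between 30979773 and 64256834 reads per library lay on listed genes. In 769-P the libraries with BCAA were deeper (64256834 and 55829324 reads) than those without (39062721 and 40130258 reads), so depth went with condition, and all 5 calls among the members described below were also made on reads thinned to 30979773 per library. Differences are given as log2 fold changes of value + 1 with BCAA relative to without, from limma, and a gene was called at an adjusted p under 0.05. The renal markers PAX8, KRT8, KRT18 and VIM had reads in both lines. The sum of the renal markers was 2633 to 2769 RPM (reads scaled to a fixed library total) with BCAA and 2788 to 2869 without in 769-P, where PAX8 was called lower (-0.64) and PAX2 (0.29) and KRT8 (0.18) higher. In CAKI-1 it was 2022 to 2116 with BCAA and 2936 to 3065 without, and VIM (-0.65), KRT18 (-0.27) and NDUFA4L2 (-1.12) were called lower. CA9 had no row in either table, PAX2 had none in the CAKI-1 table, and NDUFA4L2 had at most 3 reads in every 769-P library. Markers of other cell types (PTPRC, CD68, PECAM1, CDH5, PDGFRB, DCN and ALB) summed to between 0.973 and 3.49 RPM in 769-P and between 24.1 and 41.5 in CAKI-1. In 769-P that sum was higher with BCAA (3.47 to 3.49) than without (0.973 to 1.12), as it was in CAKI-1 (30.6 to 41.5 against 24.1 to 24.4). Most of it was PDGFRB in every library. That gene had 40.8 and 29.9 RPM with BCAA in CAKI-1, and 3.11 and 3.19 in 769-P. It was called higher in 769-P (1.88) and CAKI-1 (0.58), and no other marker of this list was called in either line. The part of either marker list in the results was not tested.

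In 769-P cells, the transcripts of both transaminases were lower with BCAA and those of 2 dehydrogenase subunits and of the kinase were higher. BCAT1 fell 5.97-fold and BCAT2 fell 1.65-fold, whereas BCKDHB rose 1.51-fold, DLD 1.4-fold and BCKDK 1.21-fold. In CAKI-1 cells the only member called was PPM1K, which rose 1.64-fold. In 769-P, 3 of the 8 members were called higher, against 20.3% of all tested genes, and 2 were called lower, against 18.2%. In CAKI-1, 1 of the 8 was called higher, against 10.8% of tested genes, against 9.05% that were called lower. None of the members was called lower there, with 0 by limma, edgeR and DESeq2, and 1 (BCKDHB) in limma at an unadjusted p under 0.05. The libraries with BCAA lay wholly on one side of those without for 7 of 8 members in 769-P, where 67% of all tested genes did so, and for 6 of 8 in CAKI-1, where 57.7% did so. The counts of 7 and 6, and the medians that follow, include BCKDHA, which had 2 to 9 reads per library and is not read as a level below. With 8 members, nothing is read from these counts about the group as a whole. The median log2 fold change of the 8 members was 0.19 in 769-P and 0.13 in CAKI-1, beside -0.02 and -0.01 over all tested genes.

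**Figure D1:**
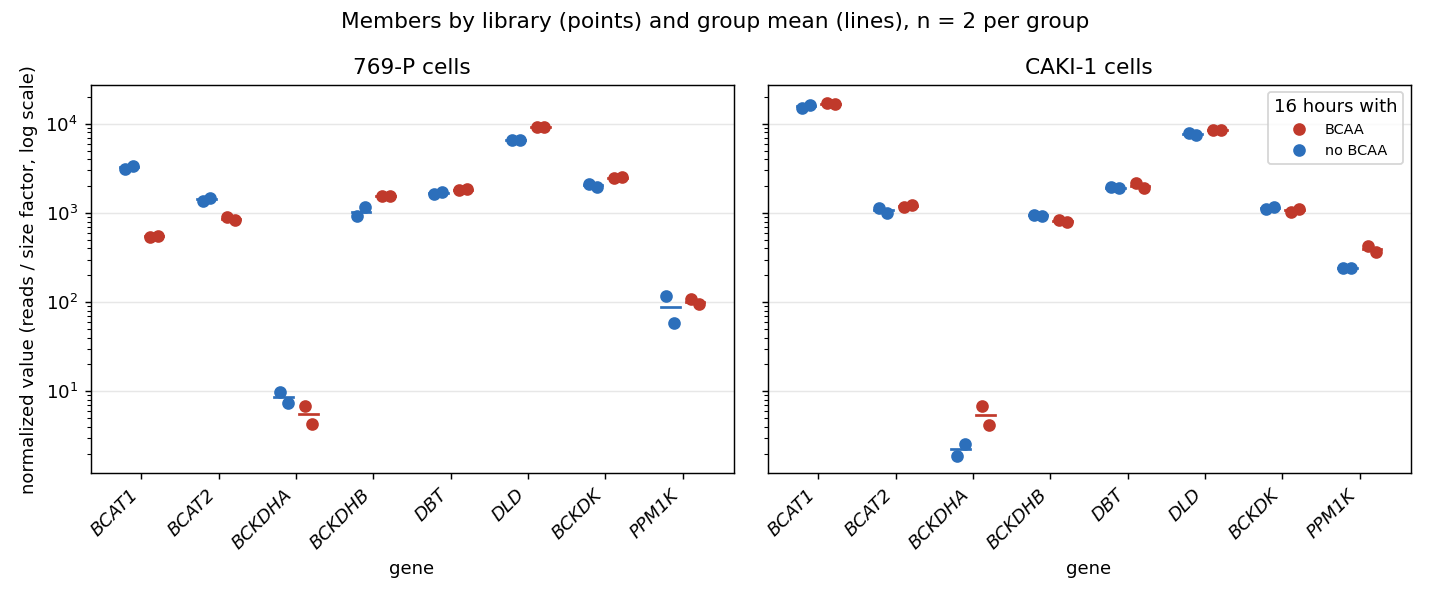
Normalized value (reads divided by the library's size factor, log scale) of each member in every library of 769-P (left) and CAKI-1 (right), with red points for libraries with BCAA, blue points for libraries without, and lines at the mean of the 2 libraries. BCAT1 stands at 544 and 546 with BCAA against 3155 and 3362 without in 769-P, and between 15183 and 17323 in every CAKI-1 library, while BCKDHA stays under 10 throughout.

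BCAT1, the cytosolic transaminase, lies on chromosome 12 (GRCh38 chr12:24810022-24949459, minus strand, 16 merged exon blocks). RefSeq gave a window around the transcription start for 7 of the 8 members, in 12 windows. BCAT2 has no entry. Of the 5 windows for BCAT1, 1 held both a TGATGNAA match (the core of the amino acid response element, a site type bound by ATF4 with C/EBP partners) and a CACGTG match (the E-box, a site type bound by MYC). Both strands were searched over the whole 300 bases. TGATGNAA was present in 3.62% of 35116 such windows and CACGTG in 7.26%. These shares are per window, whereas BCAT1 had 5 windows. The other windows of BCAT1 and those of the other matched members held neither, and AAGGTCA, a half-site of estrogen-related receptors that is present in 3.92% of windows, was in none of the members' windows. The 2 windows below run from 120 bases before the start to 30 after it, with the matches in capitals. They belong to the member that fell most in 769-P and to the E1 member that rose. Of the 5 BCAT1 windows, the window printed was chosen because it holds the matches. Which start the cells used was not tested (GRCh38.p14, RefSeq, 5′ to 3′ on the gene's strand).
BCAT1, chr12:24949072-24949221, minus strand: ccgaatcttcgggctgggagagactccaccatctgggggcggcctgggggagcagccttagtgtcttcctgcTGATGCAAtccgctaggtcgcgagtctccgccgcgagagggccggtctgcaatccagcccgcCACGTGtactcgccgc
BCKDHB, chr6:80106551-80106700, plus strand: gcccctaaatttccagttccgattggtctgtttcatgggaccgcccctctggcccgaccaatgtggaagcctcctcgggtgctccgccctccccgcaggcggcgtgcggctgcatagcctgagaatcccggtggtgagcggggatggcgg
The TGATGCAA of the BCAT1 window begins at position -48 and the CACGTG at position 15, counted from the start as position 1. A match of letters is a description and not evidence of binding.

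BCAT1 had normalized values of 544 and 546 in the 769-P libraries with BCAA, against 3155 and 3362 where BCAA was lacking, from 718, 638, 2540 and 2749 reads. The groups were far apart, and replicates within a group lay close together. The log2 fold change was -2.58 (SE 0.0675, 95% confidence interval -2.72 to -2.43, adjusted p = 1.46e-10), and it ranked 122 by size among 4069 genes called lower. In CAKI-1 the values were 17323 and 16493 with BCAA and 15183 and 16147 without. Here the libraries with BCAA were slightly higher without overlap, and the log2 fold change of 0.11 (SE 0.0571, adjusted p = 0.217) was not called.

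BCAT2, the mitochondrial transaminase (GRCh38 chr19:48795062-48811029, minus strand, 12 exon blocks), had values of 893 and 827 with BCAA and 1366 and 1470 without in 769-P. The groups did not overlap, and the log2 fold change was -0.72 (SE 0.0761, 95% confidence interval -0.89 to -0.55, adjusted p = 1.04e-05). Without the second 769-P library with BCAA the change was -0.67 and its adjusted p was 0.0524. In CAKI-1, BCAT2 had values of 1162 and 1245 with BCAA and 1149 and 988 without, which did not overlap but were close, and the log2 fold change of 0.17 (SE 0.0904, adjusted p = 0.218) was not called.

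The mix of the transaminases, which follows from the same BCAT1 and BCAT2 reads, differed with BCAA in 769-P. Per kb of exon, BCAT1 made up 19.1% and 20.3% of the BCAT1 and BCAT2 reads in the 769-P libraries with BCAA, against 47.2% and 46.9% where BCAA was lacking. In CAKI-1 the share was 85.2% and 83.7% with BCAA and 83.6% and 86.3% without, so that the groups overlapped. This ratio is taken within a library and does not depend on the size factor. The log2 ratio of BCAT1 to BCAT2 differed by -1.86 between conditions in 769-P (pooled SD 0.0576, n = 2 per group) and by -0.06 in CAKI-1 (pooled SD 0.175), with exact two-sided permutation p of 0.333 and 1, of which 0.333 is the smallest that 2 libraries against 2 allow.

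**Figure D2:**
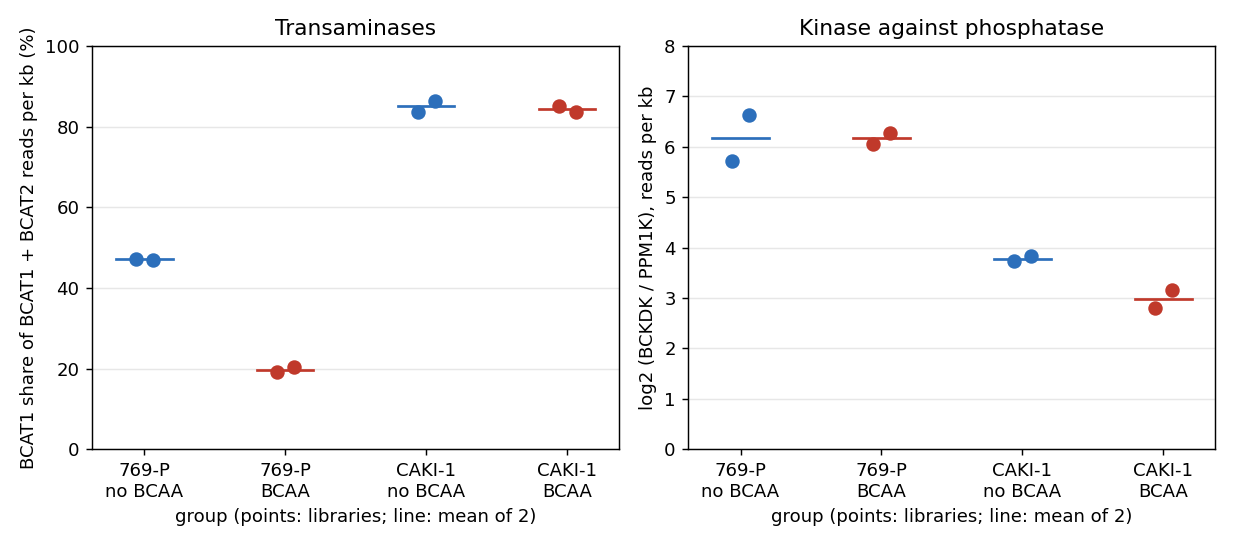
BCAT1 share of BCAT1 and BCAT2 reads per kb of exon in percent (left) and log2 ratio of BCKDK to PPM1K reads per kb (right), with 1 point per library and a line at the mean of the 2 libraries of each group. The BCAT1 share lies near 20% with BCAA and near 47% without in 769-P and between 83.6% and 86.3% in all CAKI-1 libraries, and the kinase to phosphatase ratio is lower with BCAA in CAKI-1.

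BCKDHB encodes the beta subunit of E1 (GRCh38 chr6:80106647-80346270, plus strand, 14 exon blocks). Its values in 769-P were 1563 and 1550 with BCAA and 919 and 1154 without. The libraries with BCAA were both higher, and those without differed from each other more than those with. The log2 fold change was 0.60 (SE 0.0952, 95% confidence interval 0.39 to 0.80, adjusted p = 3.07e-04), but it was not called when the first or the second library with BCAA was left out, at 0.59 (adjusted p = 0.186) and 0.60 (adjusted p = 0.182). In those fits the genes called over the whole 769-P table fell from 8605 to 2968 and 3047. In CAKI-1 the values were 843 and 800 with BCAA and 954 and 927 without, on the opposite side, and the log2 fold change of -0.19 (SE 0.0828, adjusted p = 0.133) was not called.

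BCKDHA, the alpha subunit of E1 that carries the sites BCKDK phosphorylates (GRCh38 chr19:41397460-41425005, plus strand, 10 exon blocks), had almost no reads. In 769-P it had 9 and 5 reads with BCAA and 8 and 6 without, and in CAKI-1 it had 7 and 5 reads with BCAA and 2 and 2 without. The ratio of summed reads with to without BCAA, scaled by size factor, was 0.652 in 769-P (exact 95% interval for counting error only, 0.288 to 1.48) and 2.46 in CAKI-1 (0.746 to 10.5). Both intervals include 1, and no difference was detectable at this depth. In GENCODE 29, 63.8% of the exon bases of BCKDHA (1660 of 2602) also belong, on the same strand, to the readthrough gene AC011462.1, which has no row in the tables analysed here. Reads in shared bases can be set aside by a counter as ambiguous, the counting mode is not given in the sources used here, and how far this lowered the BCKDHA row was not tested. The row is therefore not read as the level of BCKDHA. For the other members, at most 3.9% of exon bases overlapped another gene.

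DBT, the E2 core (GRCh38 chr1:100186919-100249834, minus strand, 11 exon blocks), had values of 1789 and 1844 with BCAA and 1631 and 1739 without in 769-P, and of 2144 and 1915 with BCAA and 1934 and 1885 without in CAKI-1. The groups were close in both lines and overlapped in CAKI-1. Its log2 fold change was 0.11 in 769-P (95% confidence interval -0.03 to 0.25, adjusted p = 0.21) and 0.09 in CAKI-1 (SE 0.0741, adjusted p = 0.486), and neither was called.

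DLD, the E3 subunit (GRCh38 chr7:107890970-107931730, plus strand, 16 exon blocks), had values of 9254 and 9166 with BCAA and 6665 and 6522 without in 769-P. The replicates nearly coincided, and the log2 fold change was 0.48 (SE 0.0432, 95% confidence interval 0.39 to 0.58, adjusted p = 2.56e-06). In CAKI-1 the values were 8529 and 8433 with BCAA and 7863 and 7492 without, higher with BCAA without overlap. The log2 fold change there was 0.14 (SE 0.0554, adjusted p = 0.0962), which passed only when the spread was estimated from all 8 libraries (adjusted p = 0.0366).

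BCKDK, the inactivating kinase (GRCh38 chr16:31106107-31112791, plus strand, 11 exon blocks), had values of 2457 and 2512 with BCAA and 2125 and 1971 without in 769-P. The groups did not overlap, the log2 fold change was 0.28 (SE 0.0601, 95% confidence interval 0.15 to 0.41, adjusted p = 0.00269), and the BCKDK call was lost in 3 fits with 1 library left out. The change was 0.30 (adjusted p = 0.124) without the first library with BCAA, 0.26 (adjusted p = 0.142) without the second, and 0.23 (adjusted p = 0.089) without the second library lacking it, a fit with 3565 of all genes called. In CAKI-1 its values of 1018 and 1122 with BCAA and 1108 and 1161 without overlapped, with a log2 fold change of -0.09 (SE 0.0824, adjusted p = 0.537).

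PPM1K, the activating phosphatase (GRCh38 chr4:88257620-88284769, minus strand, 8 exon blocks), had values of 431 and 368 in the CAKI-1 libraries with BCAA, against 244 and 241 where BCAA was lacking, from 443, 442, 257 and 187 reads. The groups did not overlap, and the log2 fold change was 0.71 (SE 0.13, 95% confidence interval 0.43 to 1.0, adjusted p = 0.00261). The adjusted p was 0.0574 when the spread was estimated from all 8 libraries, and between 0.0647 and 0.182 with any 1 CAKI-1 library left out. In the fits with 1 library left out, whose log2 fold changes for PPM1K were 0.60 to 0.83, limma called 0 of the CAKI-1 genes tested, with between 4235 and 5687 at an unadjusted p under 0.05. In 769-P the values were 108 and 94.9 with BCAA and 118 and 58.7 without, so the libraries without BCAA enclosed those with it. The log2 fold change was 0.28 (95% confidence interval -0.38 to 0.94, adjusted p = 0.511), and it ranged from -0.22 to 0.78 with 1 library left out, the lowest without the second library lacking BCAA.

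The ratio of kinase to phosphatase reads per kb was 66.5 and 77.7 with BCAA and 52.9 and 98.6 without in 769-P. In CAKI-1 it was 6.93 and 8.96 with BCAA and 13.3 and 14.2 without. The log2 ratio differed by -0.80 between conditions in CAKI-1 (pooled SD 0.19, exact permutation p = 0.333) and by -0.01 in 769-P (pooled SD 0.463, exact permutation p = 1).

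**Figure D3:**
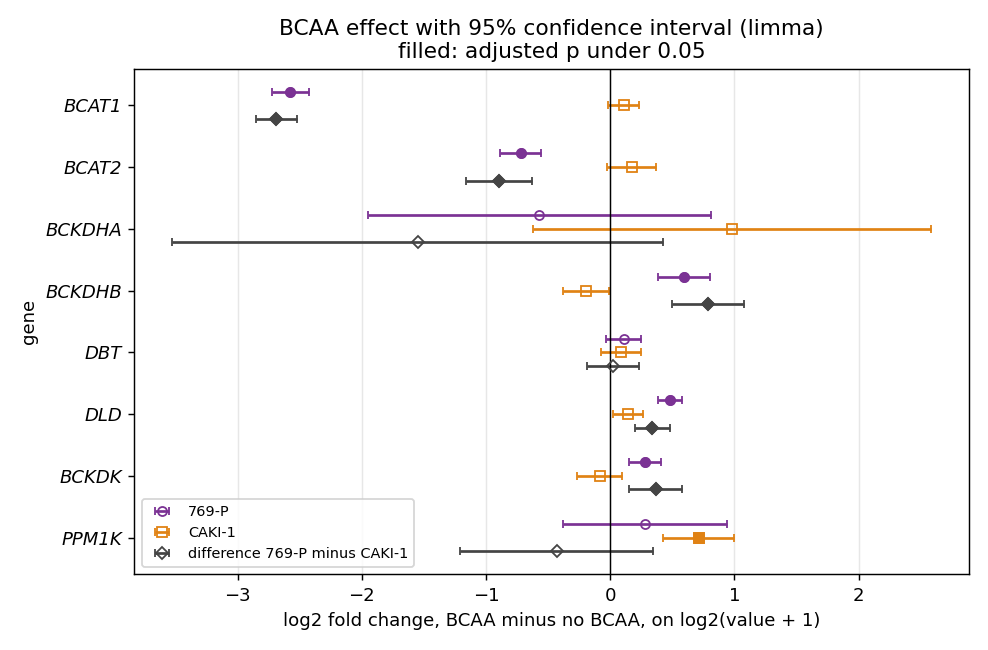
Log2 fold change of each member with BCAA relative to without, on log2(value + 1), in 769-P (circles) and CAKI-1 (squares), and the difference of the effects, 769-P minus CAKI-1 (diamonds), with 95% confidence intervals and filled symbols where the adjusted p was under 0.05. BCAT1 (-2.58 against 0.11) and BCAT2 (-0.72 against 0.17) are on opposite sides of 0 in the 2 lines, but their CAKI-1 intervals include 0. The points of BCKDHB (0.60 against -0.19), BCKDK (0.28 against -0.09) and BCKDHA (-0.57 against 0.98) also lie on opposite sides. BCKDHA has the widest intervals.

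Whether the BCAA effect itself differed between the lines was tested as an interaction in 1 limma fit over the 8 libraries and 19406 genes. It was called for 5 of the 8 members, against 21.1% of genes. The effect in 769-P minus that in CAKI-1 was -2.69 for BCAT1 (SE 0.0779, adjusted p = 2.10e-10) and -0.90 for BCAT2 (SE 0.124, adjusted p = 1.71e-04). For both transaminases the effect in 769-P was the more negative. For the dehydrogenase genes it was 0.79 for BCKDHB (SE 0.135, adjusted p = 9.35e-04) and 0.34 for DLD (SE 0.0659, adjusted p = 0.0023), and for BCKDK 0.37 (SE 0.101, adjusted p = 0.0195). The BCKDK difference lost its call in 4 of the 8 fits with 1 library left out (adjusted p up to 0.0951). For DBT the difference was 0.02 (95% confidence interval -0.19 to 0.23), and for PPM1K it was -0.43 (95% confidence interval -1.21 to 0.35). The call of PPM1K in CAKI-1 and its lack in 769-P therefore do not show different effects. Without the second 769-P library lacking BCAA, the PPM1K difference was -0.93 (adjusted p = 0.0267).

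The order of the members by level is given per length, as reads scaled to the exon length in kb and to the library's reads on listed genes (RPKM). The length was that of all annotated exons merged, 11.775 kb for BCAT1 and 5.299 kb for DLD, so the order depends on it. DLD had the highest RPKM in all 4 groups, at 36.0 with BCAA and 25.5 without in 769-P and at 40.8 and 36.5 in CAKI-1. By mean normalized value, without length, BCAT1 stood above DLD in CAKI-1 (16908 against 8481 with BCAA, 15665 against 7677 without). BCAT1 stood second in CAKI-1, at 36.6 ± 1.12 with BCAA and 33.5 ± 1.26 without (SD, n = 2). In 769-P it ranked 6 with BCAA at 0.96 ± 0.0152 and 4 without at 5.67 ± 0.209. The lines were normalized in separate tables and no test was made between their levels. In 769-P with BCAA the order after DLD was BCKDK (13.3), BCKDHB (7.93), BCAT2 (3.92), DBT (3.33), BCAT1 and PPM1K (0.185), with no overlap between neighbours. Without BCAA it was BCKDK (10.8), BCAT2 (6.38), BCAT1, BCKDHB (5.22), DBT (3.05) and PPM1K (0.16), where the ranges of BCAT1 and BCKDHB overlapped. In CAKI-1 with BCAA the order after BCAT1 was BCKDK (7.04), BCAT2 (6.73), BCKDHB (5.14), DBT (4.57) and PPM1K (0.894), and the ranges of BCKDK and BCAT2 overlapped. Without BCAA it was BCKDK (7.38), BCAT2 (5.91), BCKDHB (5.82), DBT (4.26) and PPM1K (0.537), and the ranges of BCAT2 and BCKDHB overlapped. BCKDHA is left out of this order, since its row is not read as a level.

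Among 10881 genes whose mean value reached 100 in both tables, the 3 whose log2 values, centred per line, lay closest to those of BCAT1 over the 8 libraries were SLC2A1, a glucose transporter, AMZ1, a metallopeptidase, and SLC7A5, the light chain of the leucine transporter LAT1. Their root mean square differences from BCAT1 were 0.093, 0.108 and 0.149 on the log2 scale. The log2 fold changes were -2.45 and -0.06 for SLC2A1, -2.63 and 0.17 for AMZ1 and -2.80 and 0.44 for SLC7A5, in 769-P and CAKI-1 in that order. Their likeness to the BCAT1 changes follows from the choice, which used the same libraries.

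BCAA enter cells mainly through LAT1, the heterodimer of SLC7A5 and SLC3A2, and SLC25A44 carries them into mitochondria. Of 6 genes of entry and carriers, SLC7A8 had no row in either table and 5 were tested. In 769-P, 1 was called higher and 2 lower (median -0.80), where 20.3% of all tested genes were called higher and 18.2% lower. SLC7A5 had values of 5583 and 5074 with BCAA and 36409 and 37635 without in 769-P, a log2 fold change of -2.80 (SE 0.0497, adjusted p = 9.30e-12). SLC3A2 fell with it by 1.97 on the log2 scale, and SLC25A44 rose by 0.43. In CAKI-1, 2 were called higher and 0 lower by limma, edgeR and DESeq2 (median -0.04), and 0 were lower in limma at an unadjusted p under 0.05. Over all tested genes there, 10.8% were called higher and 9.05% lower. SLC7A5 rose by 0.44 there and SLC25A44 by 0.26, and SLC3A2 changed by -0.04 (adjusted p = 0.681). The difference between lines was called for 2 of the 5, SLC7A5 (-3.24) and SLC3A2 (-1.93), against 21.1% of all genes.

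After the ketoacid step, separate mitochondrial routes take the acyl-CoA products of leucine, isoleucine and valine to acetyl-CoA, acetoacetate and succinyl-CoA. Of 20 genes of these routes, 11 were called higher, 3 lower and 6 not at all in 769-P, with a median of 0.23 beside -0.02 over all tested genes. The shares over all tested genes there were 20.3% called higher and 18.2% lower. The largest called changes were those of ACADS (0.96), a short-chain acyl-CoA dehydrogenase, MCEE (0.69), methylmalonyl-CoA epimerase, MCCC2 (0.61), a subunit of methylcrotonyl-CoA carboxylase, and ACAT1 (0.60), the mitochondrial thiolase. The MCEE call was near the threshold (95% confidence interval 0.15 to 1.23, adjusted p = 0.0459), from 189 and 169 reads with BCAA and 93 and 56 without. In CAKI-1, 2 were called higher, 1 lower and 17 not at all, with a median of -0.06, beside 10.8% of tested genes higher and 9.05% lower. In DESeq2, 8 were called higher in 769-P, and in edgeR 4 were called lower in CAKI-1. The called genes were HIBADH (-0.35) of the valine route, ECHS1 (0.26), enoyl-CoA hydratase, and MCCC2 (0.25). The effect differed between lines for 9 of the 20, against 21.1% of all genes. All 9 were more positive in 769-P, the largest being ACADS (1.3), ACAT1 (0.66), ACADSB (0.45) and MCCC1 (0.44). ACADS had values of 1801 and 1898 with BCAA and 898 and 1004 without in 769-P, and of 264 and 384 with BCAA and 401 and 405 without in CAKI-1.

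**Figure D4:**
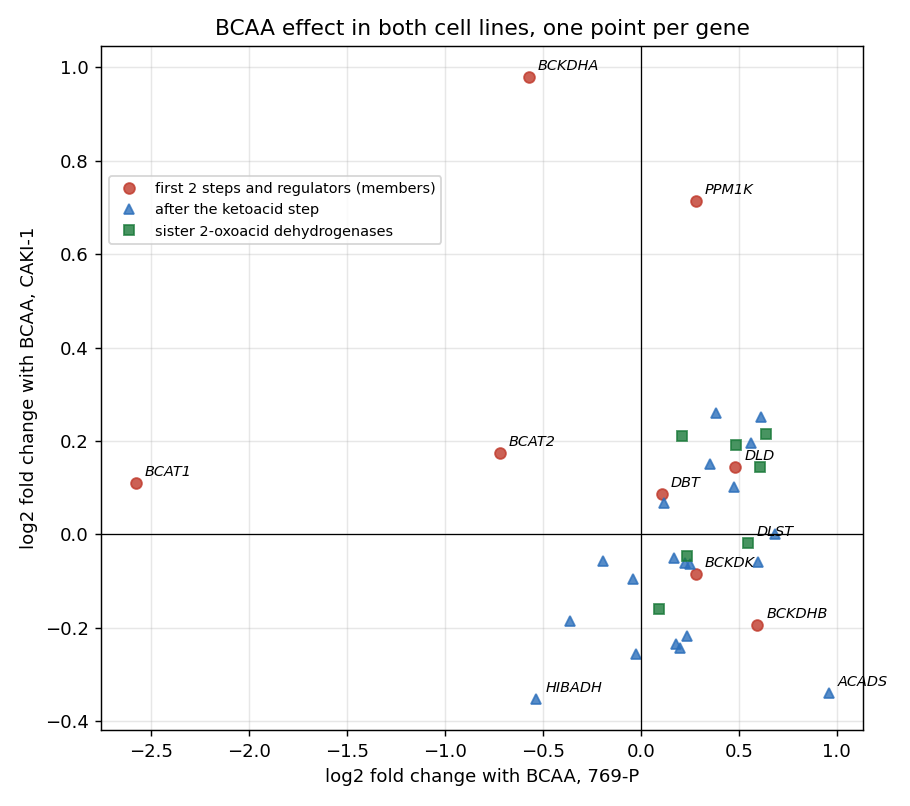
Log2 fold change with BCAA in 769-P (horizontal) and CAKI-1 (vertical), 1 point per gene, for the 8 members (circles), the 20 genes after the ketoacid step (triangles) and 7 genes of sister 2-oxoacid dehydrogenases (squares). BCAT1 and BCAT2 lie to the left, most other genes lie to the right of 0 in 769-P and, apart from PPM1K (0.71) and BCKDHA (0.98, from 2 to 9 reads per library), within 0.6 of 0 in CAKI-1.

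BCKDH belongs with the pyruvate, 2-oxoglutarate and 2-oxoadipate dehydrogenases, which are built alike and use the same DLD protein. Of 7 genes of these sister complexes, 6 were called higher in 769-P and 0 lower by limma, edgeR and DESeq2, with 0 lower in limma at an unadjusted p under 0.05, and the median was 0.49. Over all tested genes in 769-P, limma called 20.3% higher and 18.2% lower. The largest were PDHX (0.64), the E3-binding protein of pyruvate dehydrogenase, DLAT (0.61), its E2, DLST (0.55), the E2 of 2-oxoglutarate dehydrogenase, and PDHA1 (0.49), an E1 subunit. The DLD change of 0.48 lay below these and above that of PDHB (0.24). DBT, the BCKDH counterpart of DLAT and DLST, was not called (0.11), and no test was made between genes. In CAKI-1, PDHX (0.21) and PDHA1 (0.19) were called higher by limma, with a median of 0.14, whereas edgeR called 0 of the 7 higher (3 at an unadjusted p under 0.05) and DESeq2 called 1. Limma called 10.8% of all tested genes higher in CAKI-1. None was called lower there, with 0 by limma, edgeR and DESeq2, and 1 (OGDH, -0.16) in limma at an unadjusted p under 0.05. The difference between lines was called for 6 of the 7, against 21.1% of all genes, all more positive in 769-P and largest for DLST (0.56).

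Of the 7 kinases and phosphatases of pyruvate dehydrogenase, the counterparts of BCKDK and PPM1K, 2 were called higher and 2 lower in 769-P (median 0.26), namely PDK3 (1.18) and PDP2 (0.56), and PDP1 (-0.61) and PDK1 (-0.31). The shares over all tested genes were 20.3% higher and 18.2% lower there. In CAKI-1, PDP1 (-0.48) and PDK1 (-0.26) were called lower and 0 higher by limma, edgeR and DESeq2, with 0 higher in limma at an unadjusted p under 0.05 (median -0.15). DESeq2 called 1 of them lower, and limma called 9.05% of all tested genes lower in CAKI-1. The difference was called for 1 of the 7, PDP2 (0.49), against 21.1% of all genes. Of 4 genes that supply the lipoate carried by DBT, LIAS, lipoyl synthase, was called lower in both lines (-0.30 in 769-P and -0.48 in CAKI-1). LIPT1, a lipoyltransferase, was called lower in CAKI-1 (-0.74). Over all tested genes, 18.2% were called lower in 769-P and 9.05% in CAKI-1. In 769-P, LIPT1 (-0.21), LIPT2 (0.06) and MCAT (0.22) were not called by limma, and edgeR called 1 of the 4 higher. In CAKI-1, LIPT2 (0.65) and MCAT (-0.17) were not called. The difference between lines was called for 0 of the 4 by limma and DESeq2 and for 1 by edgeR. In limma, 1 had an unadjusted p under 0.05, and 21.1% of all genes were called. With 4 genes, nothing is read from these counts. The list's medians were -0.07 and -0.32. Of 3 genes of the glycine cleavage system, which also uses DLD, GLDC, the glycine decarboxylase, rose by 1.0 in 769-P. In CAKI-1, 0 were called by limma, edgeR and DESeq2, with 0 in limma at an unadjusted p under 0.05. Limma called 10.8% of all tested genes higher and 9.05% lower there. GLDC had 23 to 75 reads per library in CAKI-1 and a log2 fold change of 0.71 (adjusted p = 0.175). The medians of the 3 glycine cleavage genes were 0.28 and 0.14.

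Of 5 candidate regulators, ATF4 mRNA, which encodes the transcription factor of the amino acid response, was lower with BCAA in both lines. Its values were 15887 and 16581 with BCAA and 32276 and 31461 without in 769-P, and 16462 and 17194 with BCAA and 22678 and 22594 without in CAKI-1. The log2 fold changes were -0.97 and -0.43, and they differed between lines (-0.55, adjusted p = 4.75e-05). MYC, a growth-related transcription factor, was called lower in both lines (-0.75 and -0.27), and its effects also differed between lines (-0.48, adjusted p = 3.21e-04). PPARGC1A, which encodes the mitochondrial coactivator PGC-1 alpha, rose by 0.78 in 769-P and had a log2 fold change of -0.73 in CAKI-1 (adjusted p = 0.312), where it had 12 to 22 reads per library. HDAC7, a class IIa histone deacetylase, was not called (-0.01 and 0.04), nor was KLF15, with 0 to 3 reads per library. The medians of the 5 were -0.01 and -0.43.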

How the data were processed

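RNA-seq covered 769-P and CAKI-1 cells after 16 hours with or without BCAA, in 8 libraries grouped by their labels, 2 per group. Per the labels' processing notes, the submitters used Trim Galore, TopHat2 2.1.0, SAMtools 1.3.1, HTSeq 0.6.0, DESeq and DESeq2 with build hg38. The annotation release and counting mode are not given in the sources used here. The authors deposited a signal per gene and library, reads divided by a size factor, in 1 table per cell line. All values (100%) were whole multiples of 1 read's worth (tolerance 0.01), so reads were recovered, and size factors equalled the median of ratios over the table's 4 libraries.

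Identifiers were matched to symbols, exon lengths and overlaps through GENCODE 29 (GRCh38). Genes whose mean value reached 1 were fitted as log2(value + 1) within each line with limma 3.58.1 (R 4.3.3, trend), with Benjamini-Hochberg adjustment over all tested genes at 0.05. Named genes were all members, up to 4 genes per list with the largest called changes, and the 3 most like a member called with an absolute log2 fold change of at least 1. ATF4 and SLC7A5 library values, and the values given for members of lists that were not called, were added after they were seen. Members and lists were chosen with earlier results of these data known, and 1 gene of the lists is not reported here. Alternatives were edgeR 4.0.16 and DESeq2 1.42.0 on recovered reads, other pseudocounts, filters, scalings, thinning, a replicate block and left-out libraries. The fits were tested on simulated data.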

Additional observations from a re-analysis of the deposited data

Results flagged for a closer look

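The BCAA effect differed between the lines, by the interaction term of the limma fit, for 5 members. The effect in 769-P minus that in CAKI-1 was -2.69 for BCAT1, -0.90 for BCAT2, 0.79 for BCKDHB, 0.34 for DLD and 0.37 for BCKDK on the log2 scale. For BCAT1 the sizes of the effects were -2.58 and 0.11, and for BCAT2 they were -0.72 and 0.17. BCKDHB had effects of 0.60 and -0.19. The effects were 0.48 and 0.14 for DLD and 0.28 and -0.09 for BCKDK.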

How the results depend on the processing

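With other pseudocounts, filters, scalings, thinned reads, edgeR, DESeq2 or a replicate block, the calls of the members were as given in the report. With the spread from 8 libraries, CAKI-1 kept 1 member called, which was DLD in place of PPM1K. When a 1.5-fold change was also required, 3 members (BCAT1, BCAT2 and BCKDHB) were called in 769-P and the same 3 in the difference. In CAKI-1, 1 member (PPM1K) was called at that requirement. The share over all genes at that requirement was not computed, so nothing is read from these counts. Thinned reads gave -1.93 for the log2 ratio of BCAT1 to BCAT2 in 769-P. With 1 library left out, in fits that assume a lone library varies like the others, the members called numbered 2 to 5 in 769-P, 0 in every CAKI-1 fit, and 4 to 5 in the difference. Over all genes, the same fits called 2968 to 3699 against 8605 in 769-P, 0 against 4243 in CAKI-1, and 2918 to 4119 against 4088 in the difference. In these fits the PPM1K effect in 769-P ranged from -0.22 to 0.78, and the difference ranged from -0.058 to 0.10 for DBT (-0.023 without the first 769-P library lacking BCAA) and from -0.93 to 0.066 for PPM1K, each turning its direction. The cause was not tested. The all-gene count in CAKI-1 of 2312 higher and 1931 lower became 1417 and 1391 with quantile normalization. Same-numbered libraries did not deviate together (correlation -0.09 in 769-P and 0.06 in CAKI-1), so the replicate block was an alternative only. It left 5, 1 and 5 members called in 769-P, CAKI-1 and the difference, and the BCAT1 effect at -2.58. With 2 libraries per group, small effects such as that of DBT could not be resolved.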
